A study of Mus musculus with 11 samples.

Results

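In 328 regions of the mouse genome, H3K79me2 was higher and H3K27me3 was lower in adult than in neonatal cardiomyocytes. They are 1.75% of the 18768 regions on chromosomes 1 to 19 that the deposited tables name. The regions were chosen by measured values. A region was taken when the H3K79me2 table and the H3K27me3 table between the stages both list it at equal coordinates, with adult minus neonatal values above 0 for H3K79me2 and below 0 for H3K27me3. It also had to hold an adult H3K79me2 island and a neonatal H3K27me3 island, an island being a stretch that the caller SICER marked as enriched over input. The values of these 2 marks at both stages thus chose the members and are given below as a description. H3K4me3, H3K9me3 and the islands of mouse embryonic stem (mES) cells took no part in the choice.

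Chromatin immunoprecipitation followed by sequencing was done on left ventricle cardiomyocytes of 2-month-old mice, called adult, and on cardiomyocytes of 1-day-old mice, called neonatal. The 11 samples are 1 ChIP library for each of the 4 marks at each stage, 8 in all, and 3 inputs. Strain, sex and number of animals are not in the labels. A heart region, the left ventricle, is named for adult cells alone, so age and region cannot be told apart. The mES values come from reads of other studies that the authors processed beside their own, and they are not samples of the series.

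H3K27me3 is the mark of Polycomb repressive complex 2 and lies over silent genes, many of them regulators of development. H3K79me2 is placed by the enzyme DOT1L and spreads over the first part of transcribed genes, so that the 2 marks are usually found at genes in opposite states. H3K4me3 marks promoters, and promoters that hold it together with H3K27me3 are called bivalent and were described in embryonic stem cells. H3K9me3 is a mark of heterochromatin.

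With 1 library per mark and stage there is no test of any difference between the stages, and intervals cover counting error only. For read ratios this is the error of the reads left after subtraction of input, without that of the subtracted reads. The libraries were amplified by PCR and carry no molecular identifiers, so reads can repeat a molecule. A bulk library cannot tell a change per cell from a change in the mix of cells, nor place 2 marks on 1 allele. Coordinates are of build mm9, for which no gene annotation was used here, so the regions carry no gene names, and the labelled cell type could not be checked against marker genes. The libraries of the stages stood apart in regions of very high pile-up, with at least 100 reads per kb in any library, before normalisation. These held 0.751% of adult and 17.4% of neonatal H3K79me2 reads, 59.5% and 67.9% of H3K27me3 reads, 42.3% and 20.03% of H3K4me3 reads, and 58.4% and 74.6% of H3K9me3 reads. Of the 251 such regions, 0 are members. The adult H3K79me2 list is the longest, with 60601 islands against 17899 in the neonatal list.

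On these chromosomes 12425 regions are listed for H3K79me2 and 5158 for H3K27me3, and 3360 for both. Per the deposited description, a region is listed when its false discovery rate between the 2 libraries is below 0.01. H3K79me2 was higher in the adult at 54.4% and lower at 45.6% of all regions of its table, and H3K27me3 was higher at 73.0% and lower at 27% of its own. In the 3360 shared regions, 755 had H3K79me2 higher and H3K27me3 lower, 1777 had both higher, 154 both lower, and 674 had H3K79me2 lower and H3K27me3 higher. H3K79me2 was thus higher at 83.1% of the regions with lower H3K27me3, and at 72.5% of those with higher H3K27me3. Of the 755, an adult H3K79me2 island lay in 367 and a neonatal H3K27me3 island in 705. The adult H3K79me2 island was the step that removed most regions. With regions of the caller MACS in place of SICER islands, only 4 regions met the rule.

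**Figure D1:**
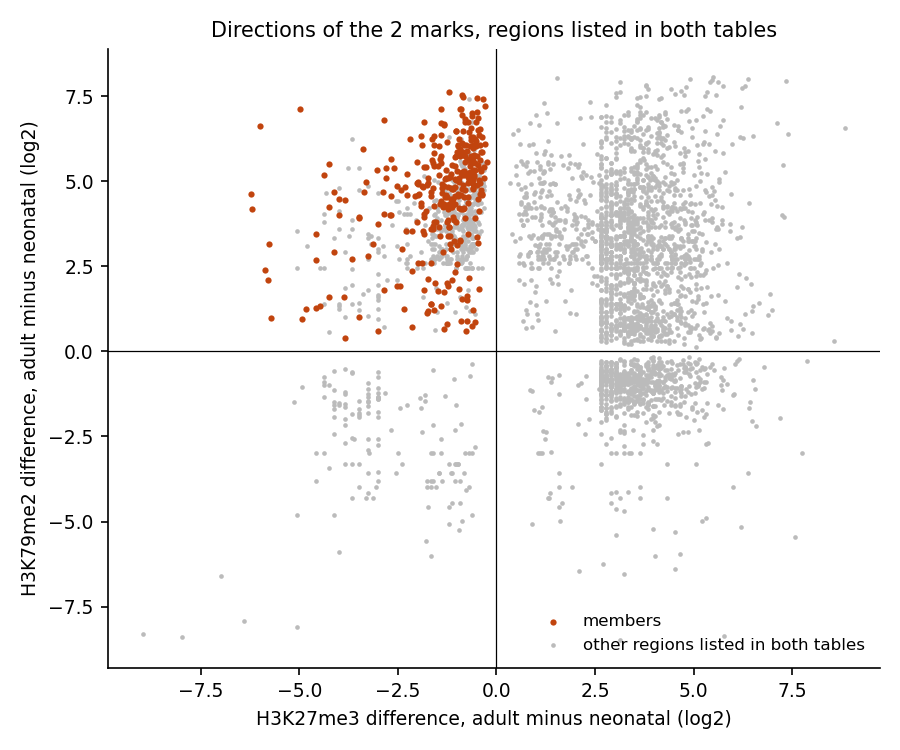
Each point is a region listed in both tables, with the H3K27me3 difference on the x axis and the H3K79me2 difference on the y axis, adult minus neonatal on the log2 scale. The 328 members lie at the upper left among 755 regions with these directions, and 19 regions past 9 on either axis are not drawn.

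Several sets of regions served for comparison. The first holds 461 regions where H3K27me3 was lower in the adult with a neonatal island, as in the members, but with no listed H3K79me2 increase. Within it H3K79me2 was lower at 80 and not listed at 381. The second holds 4270 regions where H3K79me2 was higher with an adult island but no H3K27me3 decrease is listed. The third holds the 869 other regions with both an adult H3K79me2 and a neonatal H3K27me3 island, and it overlaps the first pair of sets. The members make up 28.1% of all H3K27me3 decreases with a neonatal island and 7.07% of all H3K79me2 increases with an adult island. The members had a median width of 11400 bp (quartiles 7200 and 19000 bp), against 5200 bp in the first set, 8400 bp in the second and 13200 bp in the third. A wide region has more room for an island, so shares are also given at widths between the members' quartiles, which leaves 167 members.

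H3K79me2 reads in the members were 12 at the lowest, 73.5 at the median and 1000 at the highest in the adult library, against 1, 1 and 169 in the neonatal library. The table sets every region with no reads left after subtraction of input to 1 read, and 263 members stood at that floor in the neonatal library. The neonatal H3K79me2 values are therefore mostly not measured above input, and the size of the increase is set by the adult reads. Log2 differences ran from 0.41 to 7.62 with a median of 4.81, and 316 of the 328 members were past 2-fold. The table as a whole has 47.0% higher and 25.4% lower past 2-fold, but the rule took increases only. Of all 6753 increases in the table, 5838 were past 2-fold. The median adult level was 4.92 normalised reads per kb, against 9.73 in the second set. In 2059 regions listed as higher in the adult with no H3K79me2 island at either stage, outside high pile-up, it was 2.91. The members' adult H3K79me2 lay between those levels. In 8942 regions with a neonatal H3K79me2 island and a neonatal value, the median neonatal level was 13.0.

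H3K79me2 islands lay at both stages in 37 members and in the adult only in 291. The floor and the islands did not fully match, since 10 of the 263 members at 1 neonatal read held a neonatal island. In the 37 members with an island at both stages the median log2 difference was 1.84. Adult H3K79me2 islands covered at least 20% of the region in 237 members, at least 50% in 111 and under 5% in 7. The highest island score in a member had a median of 50 and the widest island a median of 3600 bp, where single islands of the whole adult H3K79me2 list had medians of 50 and 3200 bp.

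H3K27me3 reads were 1 at the lowest, 43.5 at the median and 1738 at the highest in the adult library, against 5, 65.5 and 1555 in the neonatal library. Only 28 members stood at 1 adult read, so this change was measured above input on both sides in most members. Log2 differences ran from -6.23 to -0.25 with a median of -1.16, and 194 of the 328 members were past a 2-fold decrease. The whole table has 17.1% past a 2-fold decrease and 70.8% past a 2-fold increase, but the rule took decreases only. Of all 1394 decreases in the table, 881 were past 2-fold, so large decreases were not particular to the members. The first set had nearly the same median difference, at -1.20. Median levels were 3.61 adult and 8.50 neonatal normalised reads per kb.

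H3K27me3 islands remained in the adult in 219 members and were absent in 109, so that the decrease was partial by island calls in 66.8% (95% Wilson interval 61.5 to 71.6). The highest score of a neonatal H3K27me3 island in a member had a median of 92.5. Single islands of the whole list had a median of 34, but a highest value per region is larger than a single island's by construction, and the rule used these islands.

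**Figure D2:**
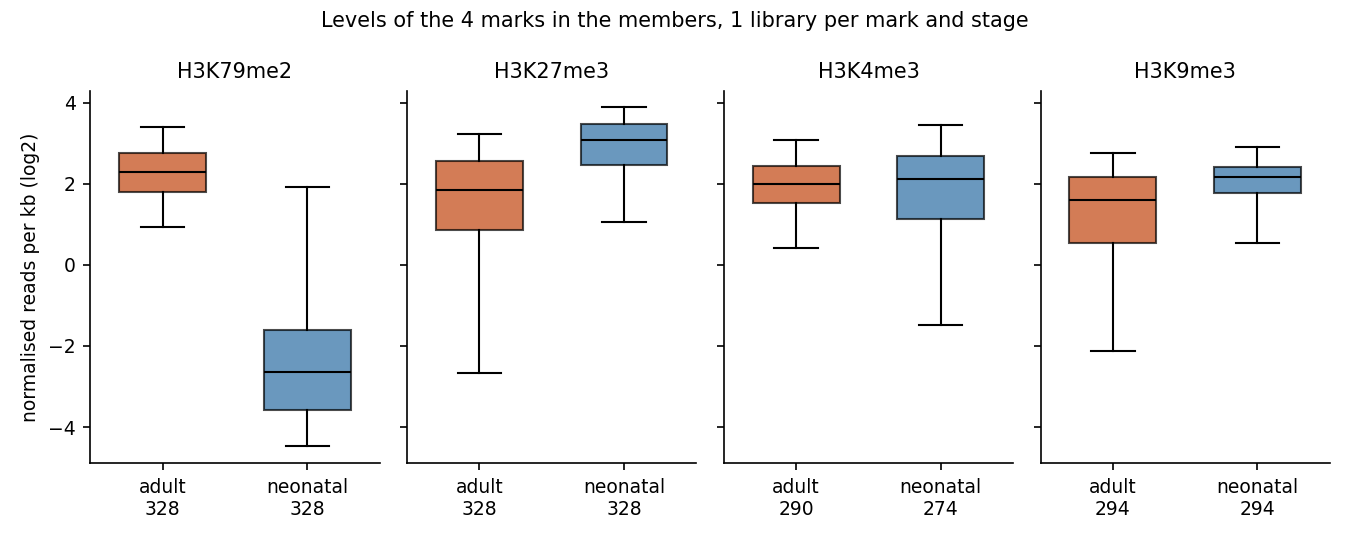
Normalised reads per kb on a log2 axis in the members, adult left of neonatal, with boxes at the quartiles, lines at the median and whiskers at the 5th and 95th percentiles over regions. Numbers below the boxes are members with a value. H3K79me2 medians are 4.92 adult and 0.161 neonatal, the H3K27me3 medians 3.61 and 8.50, the H3K4me3 medians 4.02 and 4.35, and the H3K9me3 medians 3.03 and 4.52.

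The members with the largest joint change, ranked by the smaller of the 2 changes, had H3K79me2 and H3K27me3 nearly exchanged. A bound against 3 reads is given where a library stood at the floor. It concerns the reads left after subtraction of input, and the error of the subtracted reads is not in it. Such folds are therefore not lower bounds on the enrichment itself. At chr12:112675600-112699999 adult and neonatal H3K79me2 reads were 198 and 1, at least 33.0-fold higher, and H3K27me3 reads were 1 and 40, at least 21.2-fold lower. Its H3K4me3 islands were present at both stages with 122 adult and 67 neonatal reads, a ratio of 1.08 (0.797 to 1.48) after normalisation. H3K9me3 was 2.86-fold lower there (1.73 to 4.92), with 21 adult and 66 neonatal reads. H3K4me3 was kept in this region while the 2 chosen marks changed places.

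At chr9:107557200-107571799 adult and neonatal H3K79me2 reads were 278 and 1, at least 46.4-fold higher, under an adult island of 14200 bp that spans nearly the whole region. H3K27me3 reads were 1 and 20, at least 10.6-fold lower. H3K4me3 differed too, with 177 and 21 reads, 5.01-fold higher (3.18 to 8.29), and H3K4me3 islands lay in the adult and in mES cells but not in neonatal cells. H3K4me3 was higher in the adult here, unlike in the region before.

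Others of the leading 12 kept H3K4me3 islands at both stages. At chr11:104091528-104099799 adult and neonatal reads were 90 and 1 for H3K79me2, at least 15.0-fold higher, and 6 and 71 for H3K27me3, 18.8-fold lower (8.24 to 53.1). At chr9:51568600-51577799 they were 49 and 1 for H3K79me2, at least 8.17-fold higher, and 1 and 47 for H3K27me3, at least 24.96-fold lower. H3K9me3 reads were 1 and 39 in that region, at least 11.8-fold lower, with no H3K9me3 island at either stage. Each of the last 3 regions had mES islands of H3K4me3 and H3K27me3 and none of H3K79me2.

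At chr19:46430600-46436199 the mES state was the other way round. Adult and neonatal H3K79me2 reads were 72 and 1, at least 12.01-fold higher, and H3K27me3 reads were 1 and 13, at least 6.90-fold lower. In mES cells this region held islands of H3K79me2 and H3K4me3 and none of H3K27me3. The authors' deposited tables give H3K79me2 log2 differences from mES of -6.81 in neonatal and -1.62 in adult cells here. H3K79me2 was therefore lowest in neonatal cells and highest in mES cells among these 3.

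The widest members looked different. At chr15:102737400-102875399, 138000 bp wide, adult and neonatal H3K79me2 reads were 216 and 1, but the adult H3K79me2 island covered only 1000 bp. H3K27me3 reads were 1738 and 1555, 1.43-fold lower after normalisation (1.33 to 1.53), with 19 adult and 11 neonatal H3K27me3 islands. At chr11:96110800-96221799, 111000 bp wide, H3K79me2 reads were 352 and 1 and H3K27me3 reads 1432 and 1254, 1.39-fold lower (1.29 to 1.51). Its widest neonatal H3K27me3 island measured 57800 bp. These regions met the rule with small shares of H3K79me2 islands and most of their H3K27me3 still in place.

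Width moved with the values over all members. In the 109 widest, from 15400 bp up, the median H3K79me2 log2 difference was 5.85 and the median H3K27me3 difference -0.75. In the 111 narrowest, up to 8400 bp, they were 4.05 and -1.62. Adult H3K79me2 islands covered a median of 24.7% of the widest and 42.9% of the narrowest regions, and the adult H3K79me2 level was 4.34 and 5.55 normalised reads per kb. The larger H3K79me2 differences of wide members went with lower adult levels per kb. Across the 328 members Spearman's rho with width was 0.54 for the H3K79me2 difference and 0.48 for the H3K27me3 difference, as a description, since both share the region's length. An adult H3K27me3 island remained in 99 of the 109 widest and in 49 of the 111 narrowest members.

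The values nearest the thresholds were as follows. On the inside, the H3K79me2 difference was 0.41 at chr1:135302600-135321599 and 0.59 at chr9:107947800-107957199, and the H3K27me3 difference was -0.25 at chr5:28473400-28508199 and -0.28 at chr6:6797800-6835199. On the outside, the H3K79me2 difference was -0.36 at chr19:6979800-7010799 and -0.62 at chr15:88579000-88590799, and the H3K27me3 difference was 0.33 at chr8:91551200-91585999 and 0.42 at chr2:9790600-9821799. The gap around 0 on both sides follows from the tables' limit on the false discovery rate.

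H3K4me3, which the rule did not use, was mostly kept. H3K4me3 islands lay in 257 members in the adult (78.4%, 73.6 to 82.5) and in 251 in neonatal cells (76.5%, 71.6 to 80.8), with 222 at both stages, 35 in the adult only, 29 in neonatal cells only and 42 at neither. Over all 18768 regions the shares were 64.5% in the adult and 64.1% in neonatal cells, and at comparable widths 69.3% and 68.3%. The members differed from the first set, where 35.1% (30.9 to 39.6) had an adult and 42.5% (38.1 to 47.1) a neonatal H3K4me3 island. At comparable widths the adult shares were 79.04% (72.3 to 84.5) in the members and 54.7% (46.4 to 62.8) in the first set, and the neonatal shares 76.6% (69.7 to 82.4) and 60.6% (52.2 to 68.4). These intervals do not overlap between the sets at either stage. The third set, with both islands by construction, had 77.2% (74.3 to 79.9) in the adult and 76.4% (73.5 to 79.1) in neonatal cells, and the members' intervals contain both values.

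Of 185 members in the H3K4me3 table, 88 were higher in the adult (47.6%, 40.5 to 54.7) and 97 lower, against 55.4% higher and 44.6% lower over all 10114 regions of the table. The median log2 difference was -0.44. Past 2-fold, 59 members were higher and 36 lower, where the whole table has 46.2% higher and 24.8% lower. In the second set 72.3% (70.5 to 74.0) of 2517 were higher with a median of 1.68, and in the first set 32.5% (26.6 to 39.1) of 212 with a median of -1.03. The members lay between the first and second sets, and the 3 intervals do not overlap. In the third set 68.9% (64.8 to 72.7) of 521 were higher. Regions with the opposite changes, and with a neonatal H3K79me2 and an adult H3K27me3 island, had a share like the members', 45.7% (36.5 to 55.2) of 105. Reads could be recovered for 264 members from any table, of which 47.3% (41.4 to 53.4) were higher with a median of -0.09. No common direction of H3K4me3 was seen in the members. In the 31 listed members with more than 1 H3K79me2 and H3K27me3 read at both stages, 61.3% (43.8 to 76.3) were higher. That interval contains the 47.6% of all listed members.

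The members with the largest H3K4me3 differences stood at the floor in 1 library. At chr7:19508800-19515199 adult and neonatal H3K4me3 reads were 78 and 1, at least 15.4-fold higher, with adult and mES islands and no neonatal one. At chr4:153829400-153860799 they were 58 and 1, at least 11.5-fold higher, but no H3K4me3 island lay there at either stage or in mES cells. Adult H3K79me2 islands there reached 20200 bp. An increase in the table does not always come with an island.

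H3K4me3 was most reduced at chr9:58705600-58709399, with 1 adult and 15 neonatal reads, at least 8.42-fold lower, although H3K79me2 reads were 53 and 1, at least 8.84-fold higher. Its only H3K4me3 island was in mES cells. At chr11:97402000-97416799 adult and neonatal H3K4me3 reads were 6 and 42, 11.8-fold lower (4.98 to 33.9), and the neonatal islands had no adult counterpart. H3K79me2 there had 36 and 1 reads, at least 6.004-fold higher. H3K79me2 and H3K4me3 went in opposite directions in these regions. Across the 185 listed members their differences were not related, with r = -0.09 and rho = -0.01, a description over regions that share libraries.

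H3K9me3 was lower in the adult in most listed members, as H3K27me3 was by the rule. Of 189 members in the H3K9me3 table, 38 were higher in the adult (20.1%, 15.0 to 26.4) and 151 lower, against 49.8% higher and 50.2% lower over all 9452 regions of the table. The median log2 difference was -1.09, and 100 members were past a 2-fold decrease and 18 past a 2-fold increase, where the whole table has 45.5% and 45.2%. The first set gave a like share, 22.1% higher (17.2 to 27.9) of 231, so this direction was not particular to the members. The second set gave 56.3% (54.1 to 58.3) and the third 43.6% (39.3 to 48.1). With reads recovered for 285 members, 27.02% (22.2 to 32.5) were higher and the median was -0.59. Median adult and neonatal reads were 33 and 55 over the members with a value.

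**Figure D3:**
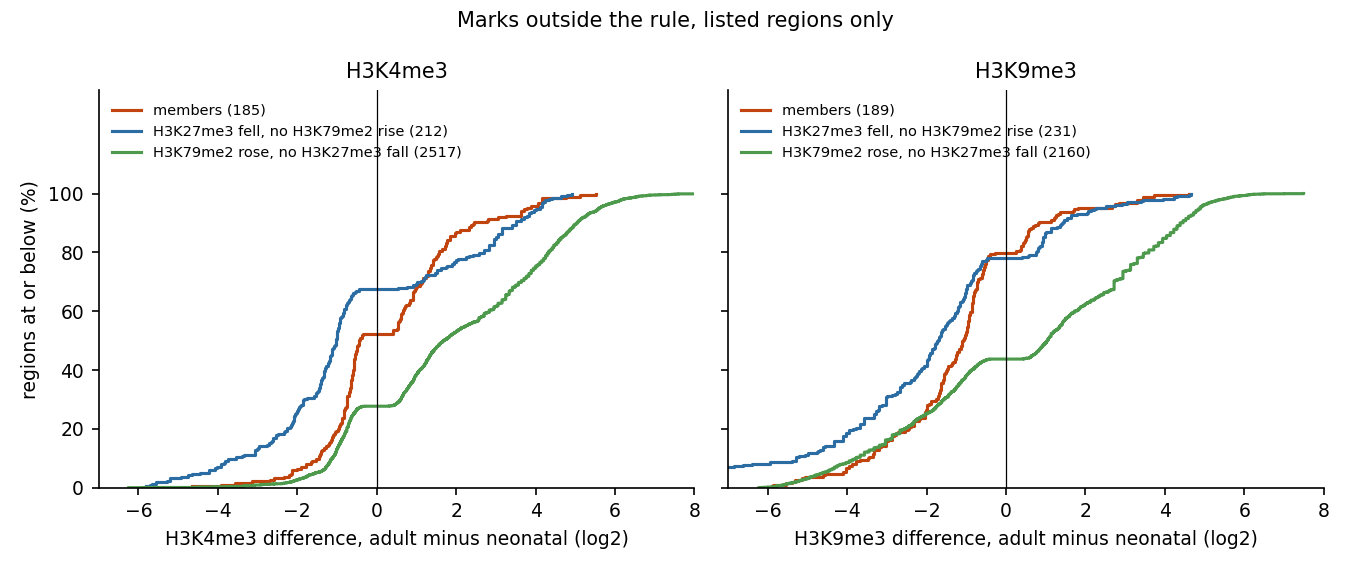
Cumulative share of regions on the y axis against the adult minus neonatal log2 difference of H3K4me3 (left) and H3K9me3 (right), for members and the first and second comparison sets, numbers listed in brackets. The members cross 0 at 52.4% for H3K4me3, between the other curves, and at 79.9% for H3K9me3, close to the first set.

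H3K9me3 islands lay in 107 members in the adult (32.6%, 27.8 to 37.9) and in 155 in neonatal cells (47.3%, 41.9 to 52.7). Requiring every island to cover at least 20% of its region, which leaves 221 members, gave 15.8% and 24.9%. By stage, 75 had one at both, 32 in the adult only, 80 in neonatal cells only and 141 at neither. The adult H3K9me3 list is nevertheless the longer of the 2, with 14921 islands against 8059. Over all 18768 regions, 12.5% had an adult and 9.72% a neonatal H3K9me3 island. At comparable widths the members had 29.3% (23.0 to 36.6) in the adult and 45.5% (38.1 to 53.1) in neonatal cells, and the first set 46.0% (37.9 to 54.3) and 41.6% (33.7 to 49.98). Over all widths the narrower first set had 24.1% (20.4 to 28.2) in the adult and 32.1% (28.0 to 36.5) in neonatal cells, both below the members. In the adult, which set held more H3K9me3 islands thus depended on the widths compared. In neonatal cells the members had the higher share in both comparisons, with intervals that overlap at comparable widths.

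H3K9me3 followed H3K27me3 among the members. In the 109 members without an adult H3K27me3 island, the H3K9me3 island share was 8.26% (4.40 to 15.0) in the adult and 20.2% (13.7 to 28.7) in neonatal cells. In the 219 with an adult H3K27me3 island it was 44.7% (38.3 to 51.4) and 60.7% (54.1 to 67.0). Those without an adult H3K27me3 island were narrower, with a median of 8000 bp against 14800 bp. Across 251 members above 1 read in all 4 libraries the H3K27me3 and H3K9me3 differences had r = 0.44 and rho = 0.50. Over 2123 such regions of the whole set outside high pile-up, r was 0.43 and rho 0.44, so the relation was not particular to the members. The labels name 1 neonatal input beside a separate one for H3K4me3, and 1 adult input, so these marks may share subtracted reads. The part of that input in the relation was not tested.

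The largest H3K9me3 decreases were at chr7:108150400-108163799, with 1 adult and 65 neonatal reads, at least 19.7-fold lower, and at chr8:120021683-120034399, with 1 and 64 reads, at least 19.4-fold lower. In the first, H3K79me2 reads were 227 and 47, 2.42-fold higher (1.76 to 3.38), under an adult island of 12800 bp, and H3K27me3 reads were 1 and 15, at least 7.96-fold lower. Both H3K9me3 and H3K27me3 were at the floor in the adult in that region. The largest increase, at chr15:89326400-89332199, had 22 adult and 1 neonatal reads, at least 8.06-fold higher, with no H3K9me3 island at either stage.

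In mES cells most members were bivalent by region, with an H3K4me3 and an H3K27me3 island in 279 of 328 (85.1%, 80.8 to 88.5). The same state was found in 26.0% of all 18768 regions. At comparable widths it was found in 85.6% (79.5 to 90.1) of the members and 78.8% (71.3 to 84.8) of the first set, with intervals that overlap. Among the members, H3K4me3 alone lay in 29, H3K27me3 alone in 11 and neither in 9. An H3K27me3 island lay in 88.4% (84.5 to 91.4) and an H3K4me3 island in 93.9% (90.8 to 96.0), whereas over all 18768 regions these shares were 29.2% and 73.4%. At comparable widths the H3K27me3 share was 87.4% (81.5 to 91.6) in the members, 87.6% (81.0 to 92.1) in the first set and 71.1% (66.5 to 75.3) in the third. Over all widths it was 74.8% (70.7 to 78.6) in the first set and 67.7% (64.5 to 70.7) in the third. The members' share was therefore above that of the third set in both comparisons, and above that of the first set only where widths were not matched.

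The mES H3K79me2 share of the members lay between those of the comparison sets. An mES H3K79me2 island lay in 110 members (33.5%, 28.6 to 38.8), in 10.2% (7.75 to 13.3) of the first set and in 69.4% of the second, with 62.8% over all 18768 regions. At comparable widths the shares were 35.3% (28.5 to 42.8) in the members, 13.9% (9.06 to 20.6) in the first set, 73.0% in the second and 54.6% (49.7 to 59.4) in the third, with 71.8% over all regions of such widths. The members' interval lies above that of the first set and below the values of the other sets. In the 52 members with more than 1 H3K79me2 and H3K27me3 read at both stages the share was 59.6%. H3K79me2 islands lay in the adult only of the 3 cell states in 203 members (61.9%, 56.5 to 67.0), in mES and adult cells but not in neonatal cells in 88, in all 3 in 22, and in neonatal and adult cells only in 15. In the second set the adult-only share was 22.5% (21.3 to 23.8).

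Members with an mES H3K79me2 island held mES H3K27me3 less often, in 73.6% (64.7 to 81.0) against 95.9% (92.3 to 97.8) of those without. A neonatal H3K79me2 island lay in 22 of the 110 with one in mES cells (13.6% to 28.4%) and in 6.88% (4.21 to 11.0) of those without. The members with H3K79me2 already in stem cells were the smaller group and were less often marked by H3K27me3 there. No comparison set is given for this split, so whether it is particular to the members was not tested.

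**Figure D4:**
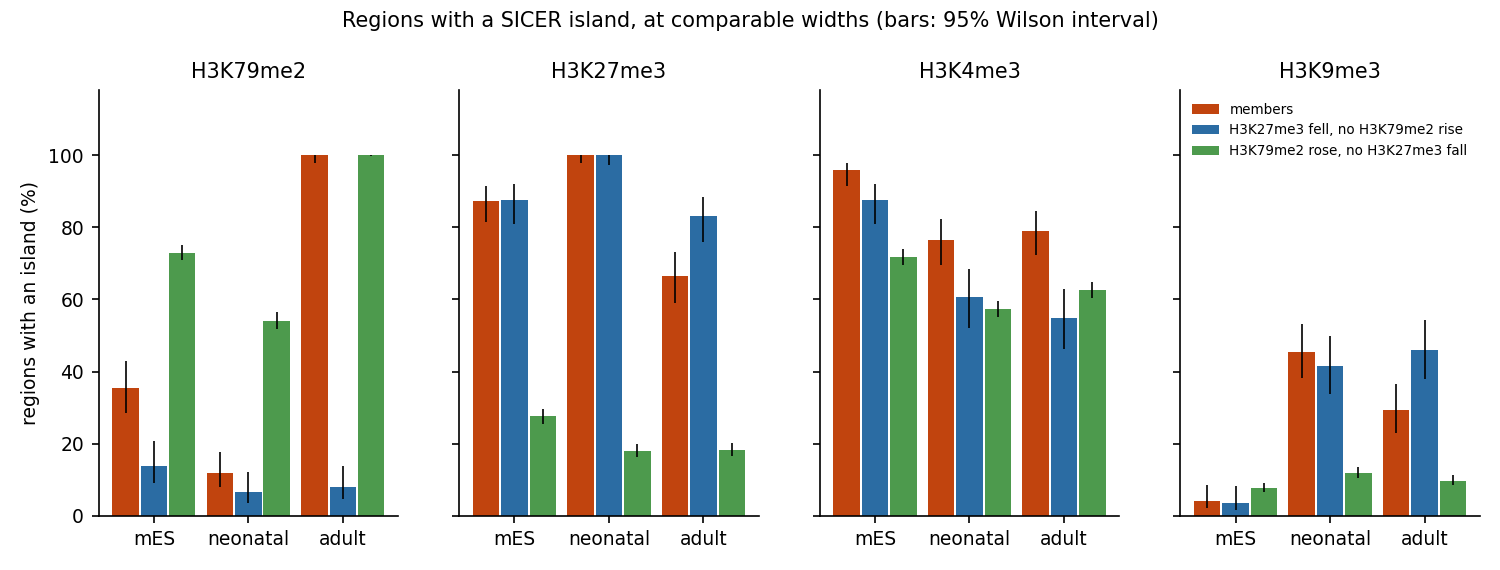
Share of regions with an island of each mark in mES, neonatal and adult cells, at widths between the members' quartiles, for 167 members, 137 regions of the first and 1768 of the second comparison set. Bars carry 95% Wilson intervals, and the bars at 100% are set by the rule. The members' mES H3K79me2 share of 35.3% lies between 13.9% and 73.0%, while their mES H3K27me3 share of 87.4% lies beside 87.6% in the first set.

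The 279 members bivalent in mES cells ended in several adult states. In the adult, 160 held both H3K4me3 and H3K27me3 islands (57.3%, 51.5 to 63.0), 68 H3K4me3 only (24.4%, 19.7 to 29.7), 32 H3K27me3 only (11.5%, 8.24 to 15.7) and 19 neither. In the first set 283 regions were bivalent in mES cells, and 32.9% (27.7 to 38.5) of them held both marks, 12.4% (9.03 to 16.7) H3K4me3 only and 37.8% (32.4 to 43.6) H3K27me3 only. The intervals of the members and the first set do not overlap for any of these 3 states. In the second set 1063 regions were bivalent in mES cells. Of them, 28.3% (25.7 to 31.1) held both marks, 54.8% (51.7 to 57.7) H3K4me3 only and 7.24% (5.83 to 8.96) H3K27me3 only. An adult H3K79me2 island, which the rule asks for, lay in 6.94% of the whole first set and in all of the second. Its part in these differences was not tested. Widths were not matched here.

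In 151 members, mES and neonatal cells both had H3K4me3 and H3K27me3 islands and no H3K79me2 island. Of these, 96 had H3K4me3, H3K79me2 and H3K27me3 islands together in the adult, 33 had H3K4me3 and H3K79me2 without H3K27me3, and 22 had no adult H3K4me3 island. An exchange by island calls of H3K27me3 for H3K79me2 on kept H3K4me3, from a bivalent start in both earlier states, was found in 33 of the 328 members (10.1%, 7.25 to 13.8). In the second set 153 of 4270 regions had the same start. Of these, 91 had all 3 islands in the adult, 25 showed the exchange and 37 had no adult H3K4me3 island. The rule asks for the neonatal H3K27me3 and the adult H3K79me2 island of the members, so these counts are a description. An absent island is not a complete loss. Of the 109 members without an adult H3K27me3 island, 28 stood at 1 adult H3K27me3 read and the others held more. The islands counted here were not required to share bases.

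Values against mES cells use the same neonatal and adult libraries of H3K27me3 and H3K79me2 as the rule, so for these marks the order of the stages is set by it. The rule also asks for a neonatal H3K27me3 and an adult H3K79me2 island, so it favours values of these above the mES level. The comparison sets chosen by the same mark are therefore given beside the members. In the authors' deposited tables H3K27me3 was higher than in mES cells in 287 of 292 listed members in neonatal cells, with a median log2 difference of 1.79, where 48.3% of the whole table was higher. In the first set it was higher in 446 of 446, with a median of 2.46, so this was not particular to the members. In the adult, 119 of 248 listed members were higher than in mES cells in the authors' deposited table, with a median of -0.40 and a background of 50.2%. The first set had 189 of 264 higher, with a median of 0.98. The members' adult H3K27me3 values were split around the mES level, and their neonatal values lay above it.

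H3K79me2 was higher than in mES cells in 26 of 76 listed members in neonatal cells and in 288 of 317 in the adult in the authors' deposited tables, with medians of -3.23 and 4.82 and backgrounds of 48.0% and 56.9%. In the second set it was higher in 875 of 2629 in neonatal and in 2746 of 3626 in adult cells, with medians of -1.72 and 3.14. For H3K4me3 the authors' deposited tables gave 127 of 230 higher in neonatal and 105 of 209 in adult cells, with medians of 0.55 and 0.25 and backgrounds of 48.7% and 49.8%. For H3K9me3 they were 251 of 259 and 196 of 234 in the authors' deposited tables, with medians of 1.83 and 1.64 and backgrounds of 49.3% and 50.7%. H3K9me3 was above the mES values at both stages in most listed members. The first set was alike, with 324 of 335 higher in neonatal and 214 of 259 in adult cells, so this was not particular to the members. An mES H3K9me3 island lay in 12 members (3.66%), against 6.24% of all 18768 regions. The mES reads come from other studies, so cell state and laboratory cannot be told apart.

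The islands of the 2 chosen marks met within the regions. Adult H3K79me2 and neonatal H3K27me3 islands shared at least 1 bp in 303 members (92.4%, 89.0 to 94.8), against 78.8% (76.0 to 81.4) in the third set, and in 4 members they lay at least 5 kb apart. The neonatal H3K27me3 islands are longer in the members, with a median of 7100 bp per region against 3000 bp, and the part of length in this difference was not tested. Adult H3K79me2 islands covered 31.2% of the bases of neonatal H3K27me3 islands, no more than the 35.0% they covered of the whole regions. Adult H3K27me3 islands still covered 48.0% of those bases.

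Within the adult, H3K79me2 and H3K27me3 islands shared at least 1 bp in 184 of the 219 members that held both (84.0%, 78.6 to 88.3), close to 83.0% (79.4 to 86.1) in the third set. Neonatal H3K4me3 and H3K27me3 islands shared bases in 238 of 251 members with both (94.8%, 91.3 to 96.9), against 71.8% (68.3 to 75.1) in the third set. Neonatal H3K27me3 islands, which the rule used, covered 66.2% of the bases of all members and 24.4% of the third set. The part of this coverage in the difference between the sets was not tested. In neonatal members with both marks the islands mostly met and did not only lie in 1 region.

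**Figure D5:**
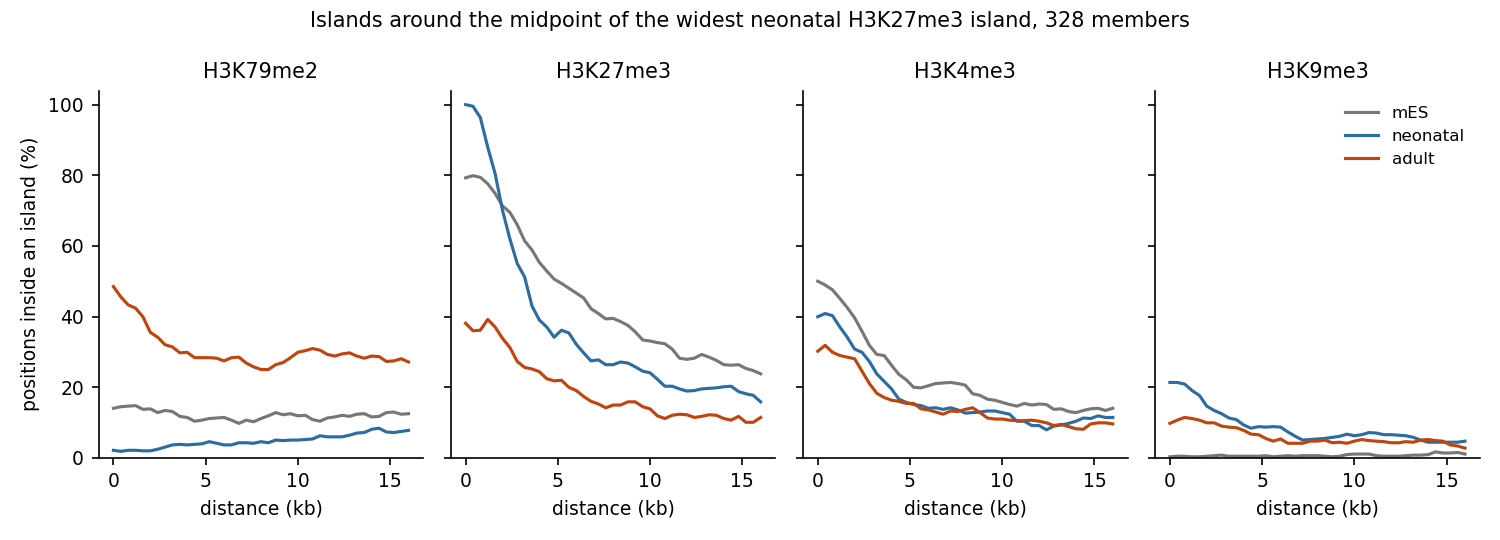
Share of positions inside an island on the y axis against the distance in kb from the midpoint of the widest neonatal H3K27me3 island of each member, both sides folded together, for each mark and cell state. Adult H3K79me2 covers 48.5% at the midpoint and 29.9% at 4 kb, neonatal H3K79me2 2.13% and 3.66%, and adult H3K27me3 38.1% and 24.4%. The neonatal H3K27me3 curve starts at 100% by construction.

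Around the midpoint of the widest neonatal H3K27me3 island, adult H3K79me2 islands covered 48.5% of midpoints, 29.9% of positions at 4 kb and 27.1% at 16 kb. The neonatal H3K79me2 curve ran the other way, with 2.13% at the midpoint and 7.77% at 16 kb. Adult H3K4me3 islands covered 30.2% of midpoints and neonatal ones 39.9%, and 16.3% and 19.5% of positions at 4 kb. Adult H3K9me3 islands covered 9.76% of midpoints and neonatal ones 21.3%. The rule itself favours adult over neonatal H3K79me2 inside these regions, whose median width is 11400 bp, so the H3K79me2 curves near the midpoint are a description only.

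The members were spread over all 19 autosomes. Chromosomes 2, 4 and 11 held 35 each. The share of a chromosome's regions that were members ran from 0.597% on chromosome 14, with 4 members, to 2.75% on chromosome 15, with 22. A neighbouring region was also a member for 56 of them, in runs of at most 4, and 87 had another member within 100 kb. Neighbours of this kind are not independent observations.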

How the data were processed

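Groups were taken from the sample labels. Per the submitters' processing notes build mm9 was used, with the tools DiffBind 1.2.0, SICER 1.1, MACS 1.4.2 and Bowtie 0.12.8. Island lists, each with a score per island that the authors deposited, were used as called per library. The authors' tables were made pairwise with default settings, per the deposited description, and give log2 normalised values with decimal commas, a fold and a false discovery rate. The deposited fold is neonatal minus adult. Here differences are adult minus neonatal. Unlogged values were whole multiples of the lowest value of their column for 100% of values at a tolerance of 0.01, and these multiples were taken as reads. The reads of a region were the same in every table that lists it, so some regions not listed between the stages could be given values. Normalisation factors for adult and neonatal libraries were 0.707 and 1.41 for H3K79me2, 0.792 and 1.26 for H3K27me3, 0.771 and 1.30 for H3K4me3, and 1.05 and 0.954 for H3K9me3. Of the mES comparisons only folds and false discovery rates entered, and the 8 columns of mES levels were left out. mES H3K4me3, H3K27me3 and H3K9me3 were moved to mm9 from an older build and mES H3K79me2 was aligned anew, per the deposited description. Summed reads over the regions of the stage tables were 1909655 adult and 1532772 neonatal for H3K79me2, 667785 and 495109 for H3K27me3, 1302633 and 467818 for H3K4me3, and 671527 and 1188973 for H3K9me3. No source used here gives library totals.

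An island counted for a region when they shared at least 1 bp. Shares carry 95% Wilson intervals and read ratios exact conditional binomial intervals (Python 3.11.15, pandas 2.3.3, scipy 1.17.1). The latter take the reads left after subtraction of input as counts, so they are too narrow where many reads were subtracted. A ratio against a library at 1 read is a bound against 3 reads, for the values after subtraction of input only. The code was tested on simulated reads. Regions named were the 12 members with the largest smaller change, the 4 highest and lowest in H3K4me3, the 3 highest and lowest in H3K9me3, the 3 widest and those nearest the thresholds, and the text gives a selection of them. Gene lists were planned but could not be placed on mm9. The members, comparison sets and lists were chosen with earlier results of these data known.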

Additional observations from a re-analysis of the deposited data

How the results depend on the processing

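The number of members depended on the island caller and on low reads. It was 4 with MACS regions in place of SICER islands, 187 with both changes past 2-fold, 52 with more than 1 read in all 4 libraries and 148 with only islands at or above the median score of their list. It stayed within 1.5 times of 328 with islands over at least 20% of the region (221), with differences centred on each table's median (433) and with islands that share a base (303, chosen after seeing the data). The 4 regions under MACS, named after their values were seen, are chr8:72983600-73038468, chr10:79422613-79436599, chr12:57777000-57804199 and chr13:56346400-56366399, and 2 of them are members by SICER.

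Shares moved as follows. With islands over at least 20% of the region, adult H3K4me3 was 57.9%, neonatal H3K4me3 62.9%, adult H3K9me3 15.8%, neonatal H3K9me3 24.9% and mES H3K4me3 83.3%. With MACS they were 25%, 50%, 0%, 25% and 75%, with 50% for mES H3K27me3, 50% for mES H3K79me2 and 0% of the listed members higher for H3K4me3. With changes past 2-fold, neonatal H3K4me3 was 70.6%, adult H3K9me3 19.8%, neonatal H3K9me3 37.4% and the H3K9me3 share higher 11.4%. Above 1 read in all 4 libraries, adult H3K9me3 was 23.1%, neonatal H3K9me3 38.5%, mES H3K4me3 90.4%, mES H3K79me2 59.6%, the H3K4me3 share higher 61.3% and the H3K9me3 share higher 8.57%. With islands at or above the median score, adult H3K4me3 was 58.8%, neonatal H3K4me3 60.1%, adult H3K9me3 20.9%, neonatal H3K9me3 33.8%, mES H3K4me3 87.8%, mES H3K79me2 27.7% and the H3K9me3 share higher 14.0%. The H3K9me3 share higher was 32.5% with centred differences, 11.9% at widths between the members' quartiles and 27.02% with recovered reads, the last 2 chosen after seeing the data. The H3K4me3 share higher thus passed 50% above the floor (interval 43.8 to 76.3). It also did so past 2-fold (51.0%, 41.4 to 60.5) and with islands at or above the median score (50.6%, 40.3 to 60.8). These intervals and that of the reported share (40.5 to 54.7) all contain 50%, so no H3K4me3 majority was established. The H3K9me3 majority held in each of these settings. The other 64 values stayed within the interval of the reported share or, for the number of members, within 1.5 times. The causes were not tested.

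No paired analysis was possible because each mark and stage has 1 library, and for the same reason no replicate could be left out. The floor limits the neonatal H3K79me2 values most, with 263 of 328 members at 1 read. That library held 1532772 summed reads in its stage table, and the neonatal H3K27me3 library held 495109. In the latter 0 members stood at 1 read, but the rule asked for a neonatal H3K27me3 island and a higher neonatal value. Over all 5158 regions listed for H3K27me3, 3073 stood at 1 neonatal read. The cause of the neonatal H3K79me2 floor was not tested.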
